A study of Mus musculus with 4 samples.

Results

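Integrins are the adhesion receptors with which T cells hold on to vessel walls, to other cells and to tissue matrix, and each one is a pair of an α chain and a β chain. The transcripts of 10 chains used by T cells for homing and for staying in tissue were followed: the α chains *Itga1*, *Itga2*, *Itga4*, *Itgae*, *Itgal* and *Itgav*, and the β chains *Itgb1*, *Itgb2*, *Itgb7* and *Itgb8*. The members were chosen by name and not by a threshold on their values. Of the 10 chains, 9 had an array probe that could be named through its transcript, out of 18749 named genes in all. The signal was well above background on at least 1 array for 8 of them and on all 4 arrays for 7, against 10810 of the 18749 named genes. No probe was matched to *Itgb8*, the partner of αv in the integrin that activates latent TGF-β, and it was not analysed here.

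The chains pair in set ways. αL with β2 forms LFA-1, which binds ICAM molecules and holds a T cell to the cell that presents antigen. α4 pairs with β1 to form VLA-4, which binds VCAM-1 and fibronectin, and with β7 to form the gut homing receptor for MAdCAM-1. αE, also called CD103, pairs with β7 alone. The pair αEβ7 binds E-cadherin on epithelial cells and is found on tissue-resident T cells, on some regulatory T cells and on mucosal mast cells. α1 and α2 with β1 bind collagens, and αv with its several β chains binds vitronectin, osteopontin and latent TGF-β. Bach2 is a transcriptional repressor of the basic leucine zipper family that restrains the effector programme of T cells.

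Cells came from C57BL/6J mice, female by their labels and aged 8 to 12 weeks by the study's methods, and were naive CD4 T cells isolated from spleen with a kit. WT cells were compared with cells labelled *Bach2* KO, from *Bach2* flox/flox mice carrying a *CD4-Cre* transgene, in which the *Cd4* promoter drives Cre and so acts in all cells of the αβ T lineage that pass through a CD4-positive stage. The study's text calls its control mice both WT and *CD4-Cre*, and the array labels give only WT. Both genotypes were primed for 2 days on plate-bound anti-TCR-β mAb (3 μg/ml) with anti-CD28 mAb (1 μg/ml), and 3 further days of culture followed under IL-2 conditions, for which the labels give 2.5 ng/ml. They were read either at that point, labelled (-), or after 4 h on anti-TCR-β mAb with no IL-2 added, labelled (+). Each of these 4 conditions was read on 1 one-colour Agilent array, with all 4 arrays on 1 slide in 1 scan, so no difference has a replicate check and no test was made. Whether an array stands for 1 mouse or for pooled mice is not given in the sources used here. The study asked how the loss of Bach2 alters T helper cells, and the comparisons made here are KO against WT in each state and re-stimulated against resting cells in each genotype.

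A signal is the background-corrected brightness of a probe as the scanner software gives it, and a difference is a log2 value between 2 arrays, each divided by its 75th percentile, which lay at signals of 313 to 436. Since probes differ in how brightly they report, each gene is set only against itself. The lowest signals marked as well above background were 14.5 to 17.2. As a yardstick of measurement, different probes of 1 gene had a median SD of 0.09 in the genotype difference before re-stimulation and of 0.11 after it, and of 0.16 and 0.14 in the re-stimulation difference of WT and of KO cells. The error that the software assigns to the 7 chains well above background throughout, carried into a difference, was 0.20 to 0.33. Neither covers the spread between mice or cultures.

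The arrays do not match their labels in every respect. The *Bach2* probe read 2932 on the WT array and 2633 on the KO array before re-stimulation, and 3310 and 3080 after it, which gives no clear check of the genotype. Of 4 Y-linked genes, 3 were well above background on both KO arrays and 0 on both WT arrays, and *Xist* was lower on the KO arrays by 1.04 and 1.19 on the log2 scale. *Xist* was still well above background on the KO arrays, at 4623 and 2585, against 9524 and 5221 on the WT arrays. Whether the KO samples held cells of both sexes was not tested. The study's methods name mice of either sex for its cultures. KO therefore names a label throughout, sex and genotype cannot be told apart, and no pair of arrays allows the genotype to be compared within 1 sex. All 12 T cell identity genes, *Cd4* and *Cd3e* among them, were well above background on every array, and none of them differed 2-fold between the genotypes in either state.

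Before re-stimulation, 1 of the 8 measured chains was at least 2-fold higher on the KO array and 1 was at least 2-fold lower, where 5.26% of the 12136 genes tested were at least 2-fold higher and 2.82% at least 2-fold lower. After re-stimulation it was again 1 higher and 1 lower, of 7 measured, against 5.17% and 3.85% of 12348 genes. The higher chain was *Itgae* and the lower chain *Itga4* both times. The states were read on different arrays, but whether they came from separate mice or cultures is not given. Their agreement is therefore not a replicate of the genotype difference. *Itgal* lay above WT by less than 2-fold in both states, and the β chains moved little. The median difference of the measured chains was -0.30 before and -0.23 after re-stimulation, beside medians of -0.00 and 0.02 over all genes tested. Its sign did not hold after re-stimulation, where it was 0.0076 with the mean over probes and 0.073 without a filter, and before it the mean over probes gave -0.036.

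**Figure D1:**
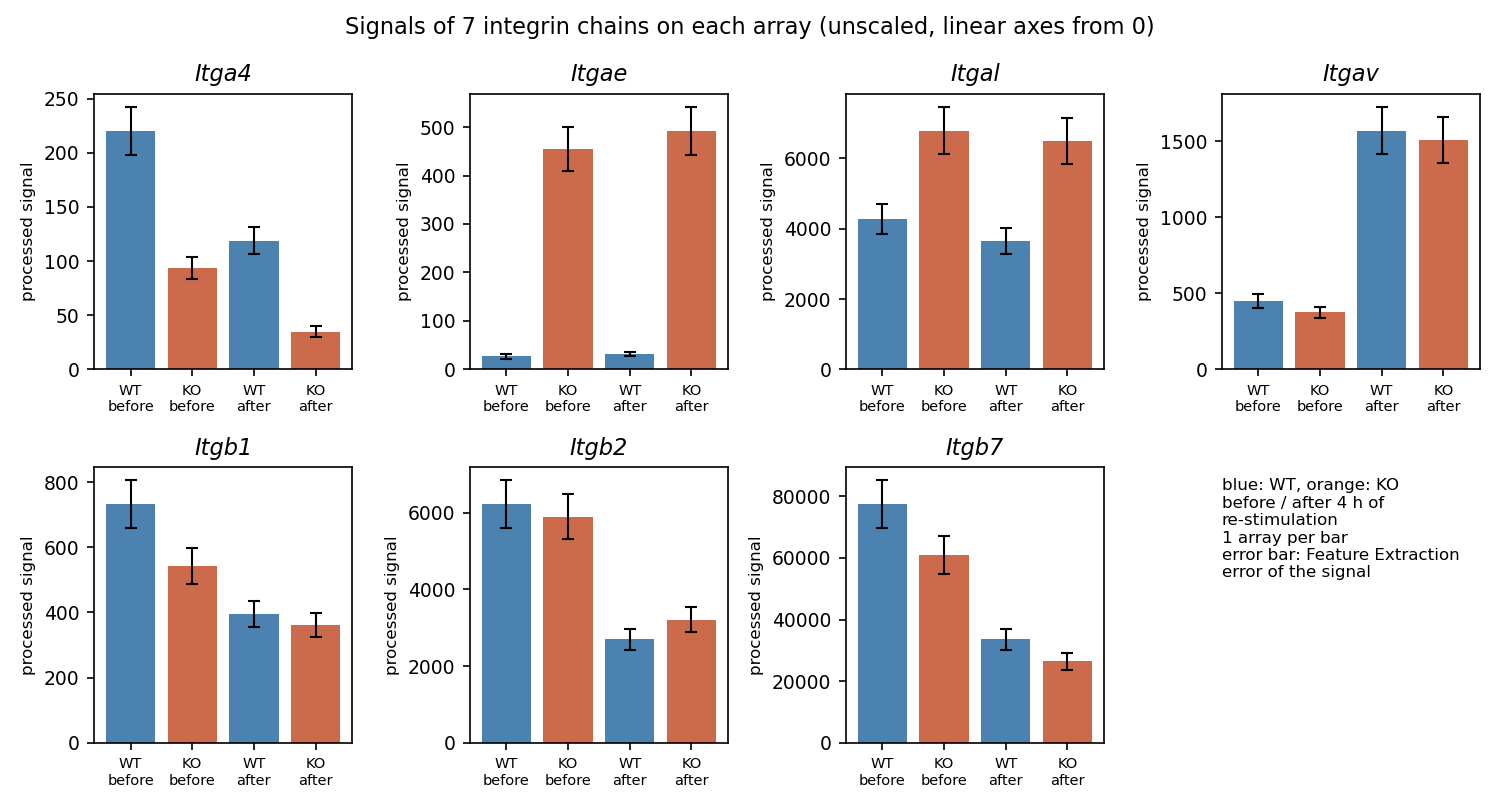
Processed signal, in the scanner's arbitrary units and before scaling, of the 7 integrin chains that were well above background on all 4 arrays. Each bar is 1 array (blue WT, orange KO), each axis is linear from 0 and belongs to 1 gene, and the error bars are those of the scanner software; *Itgae* is low on both WT arrays and high on both KO arrays, *Itga4* is lower on the KO array of each state, and *Itgav* is high on both arrays after re-stimulation.

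*Itgae* (transcript NM_008399), the αE chain or CD103, showed the widest genotype difference of the measured chains. Its signals were 26.7 in WT and 455 in KO cells before re-stimulation, and 31.6 in WT and 493 in KO cells after it. Both KO arrays stood far above both WT arrays, and the WT signals lay close to the lowest that were called well above background. The difference was 4.10 ± 0.28 on the log2 scale before re-stimulation, 17.1-fold, and 3.79 ± 0.26 after it, 13.8-fold, where ± is the software error. Only 24 of 12136 genes, *Itgae* among them, differed upwards by as much before, which is 0.198% of them, and 40 of 12348 after, 0.324%. The gene was read by 1 probe. Over 8 other ways of processing the difference ranged from 2.20 to 4.23 before and from 2.43 to 3.90 after, past 2-fold in each, with both low values from normexp followed by quantile normalization, and the cause was not tested. Of these ways, averaging over probes and changing the background filter could not alter the difference of this gene. The authors' table uses the same scaling as the main values. Re-stimulation moved it by 0.72 ± 0.33 in WT and by 0.42 ± 0.20 in KO cells.

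Several transcripts known from mast cells and basophils were higher on the KO arrays, as *Itgae* was, and which cells made them was not measured. Of 10 mast cell and basophil markers with a probe, 3 and 2 were well above background on the WT arrays before and after re-stimulation and 7 on each KO array, with summed signals of 202 and 423 in WT and 1327 and 1959 in KO. *Mcpt8*, a basophil protease, read 309 and 333 on the KO arrays, and both WT arrays had it at background. *Cpa3*, the mast cell carboxypeptidase, read 339 and 195 on the KO arrays, at least 22.5-fold and 11.9-fold higher than in WT, *Fcer1a*, the IgE receptor α chain, read 74.4 and 76.6, at least 4.94-fold and 4.68-fold higher, and *Prss34*, a basophil protease, read 293 and 244. *Gata2* was likewise well above background on the KO arrays alone, at 25.9 and 27.9. The mast cell genes *Mcpt4* and *Tpsb2* and the Fc receptor β chain *Ms4a2* were well above background on 0 arrays. *Cd8a* was well above background only on the KO array after re-stimulation, at 63.0. Of 7 measured markers of regulatory T cells, 4 were above and 3 below WT before re-stimulation and 5 above and 2 below after it, with medians of 0.28 and 0.43 and summed signals of 4475 and 18314 in WT and 8238 and 25406 in KO. *Foxp3*, the factor that defines these cells, was among the lower ones, with 50.8 and 19.5 on the WT arrays and no signal well above background on the KO arrays. *Ctla4* differed by -1.38 before and 0.51 after re-stimulation. *Tnfrsf9*, which is also induced on activation, was higher by 1.22 and 0.26. It made up most of these sums, with 2666 and 16547 in WT and 6174 and 22408 in KO cells. NK cell markers were well above background for 3 of 6 genes on each array, with sums of 646 in WT and 1302 in KO cells before re-stimulation and 1222 and 1277 after it, and with *Ncr1* and *Klra4* at 0 arrays. *Eomes*, a factor of NK cells and of effector T cells, was 3.06-fold higher on the KO array before re-stimulation, at 860 against 283, and differed by -0.10 on the log2 scale after it. The part of these cells in the *Itgae* difference was not tested, and in bulk RNA more cells with the transcript and more transcript per cell cannot be told apart.

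Patterns were compared by the root mean square distance between centred log2 values, among 10809 other genes well above background on all 4 arrays. This leaves out genes that were at background on the WT arrays, such as *Mcpt8* and *Cpa3*. The patterns nearest to *Itgae* were those of *Ctsg* at a distance of 0.12, *Klrg1* at 0.23 and *Pparg* at 0.33. *Ctsg* encodes cathepsin G, a granule protease of myeloid cells, and read 16.9 and 17.9 in WT against 274 and 249 in KO cells. *Klrg1*, a receptor of E-cadherin on effector lymphocytes, read 17.0 and 19.0 against 198 and 234. *Pparg*, a nuclear receptor, read 42.6 and 61.1 against 534 and 1040. The WT signals of *Ctsg* and *Klrg1* lay close to the lowest called well above background. With 4 arrays, many genes can share such a pattern.

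*Itga4* (transcript NM_010576), the α chain of VLA-4 and of the gut homing receptor α4β7, went the other way. Its signals were 220 in WT and 93.5 in KO cells before re-stimulation, and 119 in WT and 34.8 in KO cells after it. The KO array was the lower one in both states, and the array of re-stimulated KO cells was the lowest of the 4. The difference was -1.23 ± 0.21 on the log2 scale before re-stimulation, 2.34-fold lower, and -1.94 ± 0.26 after it, 3.85-fold lower. The first was under 2-fold, at -0.80, with normexp and at -0.74 with the mean over probes, and the second was -1.03 with normexp. After re-stimulation 106 of 12348 genes, *Itga4* among them, differed downwards by as much, 0.858%. Re-stimulation lowered it by 0.41 ± 0.21 in WT and 1.12 ± 0.26 in KO cells, a gap between the genotypes of -0.72. With the mean over its probes the WT value turned to a rise of 0.50 and the KO value was -0.27.

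The *Itga4* values rest on 1 probe. Another 2 probes of the same transcript were near background, the brighter of them well above it on 1 array only, at 21.0 in re-stimulated WT cells, and they gave no difference to set beside it. The nearest patterns to *Itga4* were those of *Tcf7*, at a distance of 0.12, *Serpini1* at 0.13 and *Frat2* at 0.16. *Tcf7*, which encodes TCF-1, a factor of naive and memory T cells, read 1560 in resting and 735 in re-stimulated WT cells, and 523 and 209 in KO cells.

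The promoters of 7 of the 10 chains were in the RefSeq set used here, on GRCm38.p6, as 300-base windows from 250 bases before to 50 after the start of each gene. They were searched on both strands for the AP-1 core TGANTCA, to which Bach2 and Batf factors with their partners can bind, and for the Runx core TGTGGT, 2 motifs that do not overlap here. AP-1 letters were in 0 of the 7 windows, where 7.81% of 32851 such windows in the genome hold them. *Itgae*, *Itgal* and *Itgb2* had no window under these symbols and were not searched. Runx letters were in 1 of the 7, that of *Itga4*, where 16.8% of all windows hold them. The windows of the 2 chains that passed 2-fold in some comparison and are in the set, and of *Itgb7*, the chain that α4 and αE share, are shown so that these letters can be read in place. Capitals mark the Runx letters, which lie from position 191 of the *Itga4* window on the strand opposite to the gene and so read as ACCACA.
*Itga4*, chr2:79255176-79255475, plus strand: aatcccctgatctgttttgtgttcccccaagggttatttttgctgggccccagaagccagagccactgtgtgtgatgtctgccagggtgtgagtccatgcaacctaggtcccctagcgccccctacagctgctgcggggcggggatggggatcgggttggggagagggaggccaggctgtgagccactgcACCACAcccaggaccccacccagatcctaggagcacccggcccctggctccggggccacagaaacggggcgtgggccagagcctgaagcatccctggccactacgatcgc
*Itgav*, chr2:83724147-83724446, plus strand: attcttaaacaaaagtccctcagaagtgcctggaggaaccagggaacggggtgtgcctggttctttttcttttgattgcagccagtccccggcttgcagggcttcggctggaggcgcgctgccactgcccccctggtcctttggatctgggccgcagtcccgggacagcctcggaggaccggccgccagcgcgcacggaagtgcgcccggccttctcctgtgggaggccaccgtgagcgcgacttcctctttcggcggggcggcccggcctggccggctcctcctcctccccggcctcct
*Itgb7*, chr15:102231886-102232185, minus strand, written along the gene: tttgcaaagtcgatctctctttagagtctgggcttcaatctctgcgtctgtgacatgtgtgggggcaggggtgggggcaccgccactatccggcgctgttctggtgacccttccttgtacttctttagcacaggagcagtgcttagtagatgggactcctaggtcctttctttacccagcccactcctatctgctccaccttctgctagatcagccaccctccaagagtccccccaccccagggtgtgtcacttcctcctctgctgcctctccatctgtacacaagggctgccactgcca
A match is a stretch of letters and not a measured binding site, and binding was not measured on these arrays.

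The chain that α4 and αE share stayed within 2-fold of WT. *Itgb7* (transcript NM_013566), the β7 chain, read 77487 in WT and 60915 in KO cells before re-stimulation, and 33614 and 26400 afterwards. The KO array was the lower one in both states, by 0.34 ± 0.20 and 0.52 ± 0.20. These differences exceeded the spread between probes of 1 gene, and 14.3% and 10.8% of genes differed downwards by as much. So αE was higher, α4 lower and β7 slightly lower on the KO arrays. The nearest patterns to *Itgb7*, all at distances of at most 0.025, were those of *Hsd17b4*, *Lmnb2* and *Rnf169*.

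*Itgal*, the αL chain of LFA-1, was read by 2 probes of different transcripts. The brighter (NM_001253872) read 4265 in WT and 6796 in KO cells before re-stimulation, and 3644 and 6493 afterwards. The other (NM_008400) read 2764 and 4943 before, and 3208 and 5944 after. Both probes put the KO array above the WT array in both states. The differences of the brighter were 0.68 ± 0.20 and 0.66 ± 0.20, 1.6-fold and 1.58-fold, and those of the other were 0.85 and 0.72. Neither probe reached 2-fold, and 8.28% and 9.31% of genes differed upwards by as much as the brighter one. Over 8 other ways of processing, the difference ranged from 0.62 to 0.82 before and from 0.63 to 0.76 after. Among these, changing the background filter could not alter it, and the authors' table uses the main scaling.

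Its partner did not follow it. *Itgb2* (transcript NM_008404), the β2 chain, read 6229 in WT and 5902 in KO cells before re-stimulation, and 2697 and 3213 afterwards. The differences of -0.07 and 0.08 were within the software error of 0.20 and within the spread between probes. Of the 7 chains well above background on all arrays it was the only one whose genotype difference lay within both yardsticks in both states.

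*Itgb1* (transcript NM_010578), the β1 chain that pairs with α1, α2, α4 and others, was printed 10 times on each array. Its mean signals were 733 in WT and 542 in KO cells before re-stimulation, and 394 and 361 after it. Over the 10 spots the SD of the log2 signal was 0.03 to 0.07 on each array. Before re-stimulation the spots ran from 700.0 to 754 in WT and from 474 to 565 in KO cells, without overlap. After it they ran from 378 to 417 in WT and from 344 to 388 in KO cells, and overlapped. Such spots repeat 1 probe on 1 array and do not cover the spread between mice or cultures. The differences were -0.43 ± 0.20 and -0.30 ± 0.20. A second probe for the same transcript read 137, 125, 90.1 and 93.7 in the order WT and KO before, WT and KO after, and gave -0.13 and -0.12. The direction was shared by both probes while the size was not.

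*Itgav* (transcript NM_008402), the αv chain, read 452 in WT and 374 in KO cells before re-stimulation, and 1572 and 1511 afterwards. The genotype differences were small, -0.26 ± 0.20 and -0.23 ± 0.20. A dimmer second probe, well above background only after re-stimulation at 51.3 in WT and 68.6 in KO cells, gave 0.25 there, so the direction of the genotype difference of *Itgav* is not settled between its probes.

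The collagen-binding α chains were at the edge of detection. *Itga2* (transcript NM_008396), the α2 chain, was well above background only in WT cells before re-stimulation, at 21.7, with 15.2 in KO cells. Taken as a bound, the WT value was at least 1.28-fold higher. *Itga1* (transcript NM_001033228), the α1 chain, read 13.3 to 15.8 on its brightest of 3 probes and was well above background on 0 arrays. *Itga1* gives no genotype difference at this signal. *Itga2* gives only that bound, which is counted among the 8 chains measured before re-stimulation.

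**Figure D2:**
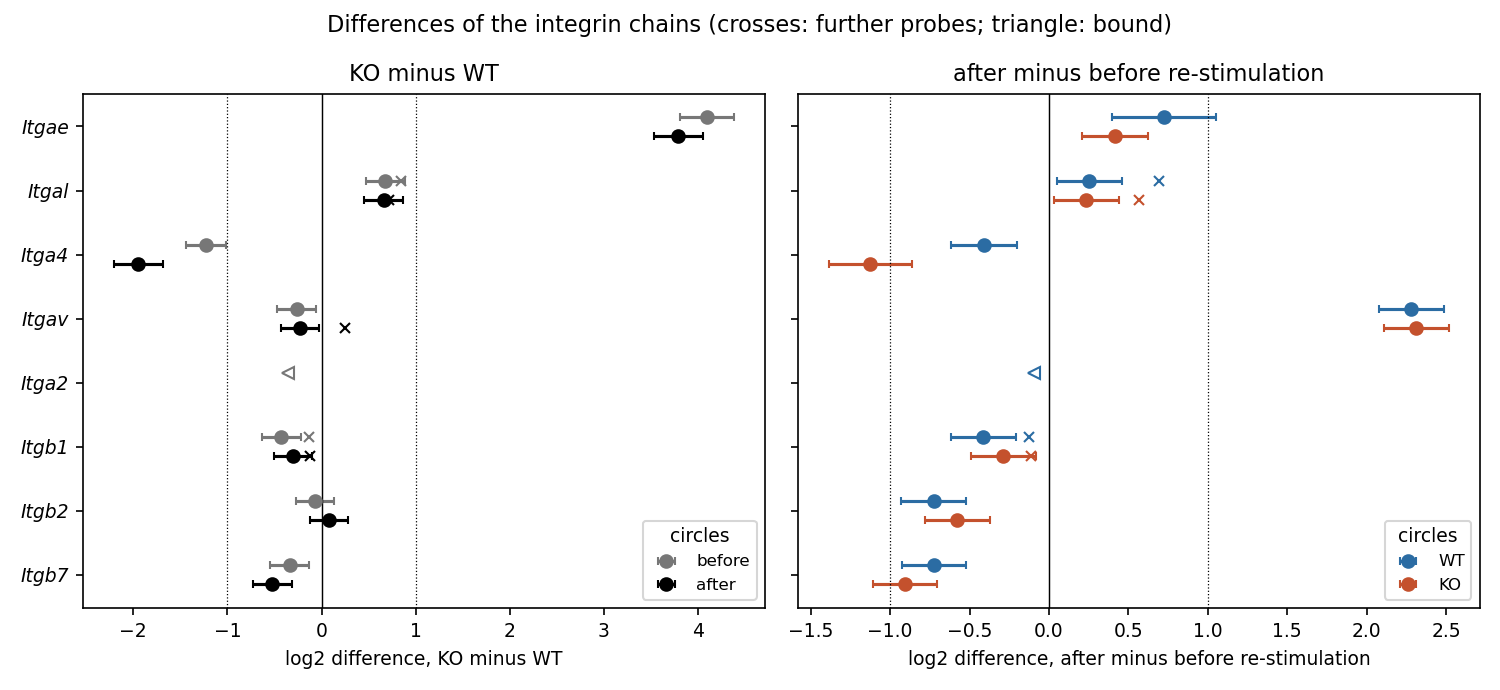
Log2 differences of the measured chains between KO and WT cells (left, grey before and black after re-stimulation) and between cells after and before re-stimulation (right, blue WT and orange KO). Circles are the probe with the higher mean signal with the error of the scanner software, crosses are further probes of the same gene, the open triangles of *Itga2* are bounds, and dotted lines mark 2-fold; *Itgae* is at 4.10 and 3.79 on the left and *Itgav* at 2.28 and 2.31 on the right.

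Re-stimulation for 4 h raised 1 chain past 2-fold in both genotypes. In WT cells 1 of 8 measured chains was at least 2-fold higher and 0 at least 2-fold lower, where 13.2% and 13.5% of 12388 genes were. In KO cells 1 of 7 was higher and 1 lower, beside 12.4% and 13% of 12394 genes. The medians over the chains were -0.25 in WT and -0.29 in KO cells, and those of all genes -0.01 and 0.

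The chain that rose was *Itgav*, by 2.28 ± 0.20 in WT and 2.31 ± 0.20 in KO cells, 4.86-fold and 4.97-fold. Of all genes tested, 3.7% and 3.3% rose by as much. The 2 genotypes differed in this rise by 0.03, less than the spread between probes. Its second probe went from 3.18 to 51.3 in WT and from 16.5 to 68.6 in KO cells, the same direction, from signals not well above background. The nearest pattern was that of *Ceacam1*, a homophilic adhesion receptor and coinhibitor of T cells, at a distance of 0.017, with signals of 118 and 97.1 before and 407 and 403 after re-stimulation. *Qtrt2*, at 0.070, and *Dnmt3a*, at 0.077, came next.

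The β chains fell. *Itgb7* dropped by 0.72 ± 0.20 in WT and 0.91 ± 0.20 in KO cells, *Itgb2* by 0.73 ± 0.20 and 0.58 ± 0.20, and *Itgb1* by 0.41 ± 0.20 and 0.29 ± 0.20. None of the 3 reached 2-fold. The falls of *Itgb7* and *Itgb2* were larger than the spread between probes in both genotypes. That of *Itgb1* was within it on the second probe, at -0.13 and -0.11, and with *Cd3e* scaling, at -0.12 and -0.033. *Itgal* rose by 0.25 and 0.23 on its brighter probe and by 0.70 and 0.57 on the other, and scaling to the array median turned the first pair to -0.044 and -0.031. Since that scaling moved the median of all genes by -0.30 in WT and -0.26 in KO cells, the direction of a small re-stimulation difference depends on how the arrays are put on one scale. The order of the 4 levels was thus led by state for *Itgav*, *Itgb2* and *Itgb7* and by genotype for *Itgae*, *Itgal* and *Itga4*. For *Itgb1* the resting KO and the re-stimulated WT array, at scaled log2 levels of 0.32 and 0.34, did not differ beyond the spread between probes.

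Other integrin chains, most of them known from other cells, were read for comparison, 10 of 15 with a probe being measured in each genotype comparison. Before re-stimulation 1 was at least 2-fold higher on the KO array and 2 were lower, and after it 2 were higher and 3 lower, with medians of 0.22 and -0.03. Over all genes tested, 5.26% were at least 2-fold higher and 2.82% lower before re-stimulation, and 5.17% and 3.85% after it. *Itgax*, the αX chain of dendritic cells and of some effector T cells, was well above background only on the KO arrays, at 65.7 and 55.7, at least 4.37-fold and 3.4-fold higher. *Itgam*, the αM chain of myeloid cells and NK cells, was well above background on 0 arrays. Myeloid markers were so for 3 to 5 of 9 genes on each array, with sums of 295 and 114 in WT and 632 and 287 in KO cells, and with *Lyz2* at 0 arrays. Of these markers, 2 of 5 measured were at least 2-fold higher on the KO array before re-stimulation and 2 of 3 after it. In both states 0 were at least 2-fold lower. The higher ones were *Adgre1*, at 2.23-fold and 2.95-fold, and *Mpo*, at 4.92-fold and 2.99-fold. The part of myeloid cells in the *Itgax* difference was not tested.

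*Itga6*, a laminin receptor chain, read 1097 in WT and 402 in KO cells before re-stimulation, and 486 and 121 after it, -1.44 and -2.18 on the log2 scale. *Itga7*, another laminin receptor chain, read 624 and 231 before, and 128 and 22.5 after, -1.43 and -2.68. Both were lower on the KO array in each state and fell on re-stimulation in each genotype, as *Itga4* was and did. *Itgb3*, a β chain that pairs with αv, read 15209 in WT and 20410 in KO cells before re-stimulation and 8960 and 3552 after it, so that the KO array was the higher one before, by 0.43, and the lower one after, by 1.51. Since β3 is also a platelet integrin, platelet markers were read beside it, and 2 of 7 were well above background on each WT array and 3 on each KO array, with sums of 167 and 64.5 in WT and 118 and 100.4 in KO cells before and after re-stimulation. *Pf4* was so on the KO arrays only, at 47.3 and 46.3, *Vwf* differed by -1.74 and -0.47, and *Ppbp* and *Gp9* were at 0 arrays, and their part in the *Itgb3* differences was not tested. *Itga5*, the fibronectin receptor chain, is named here after its values were seen, and was higher on the KO array by 0.23 before and 1.16 after re-stimulation.

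**Figure D3:**
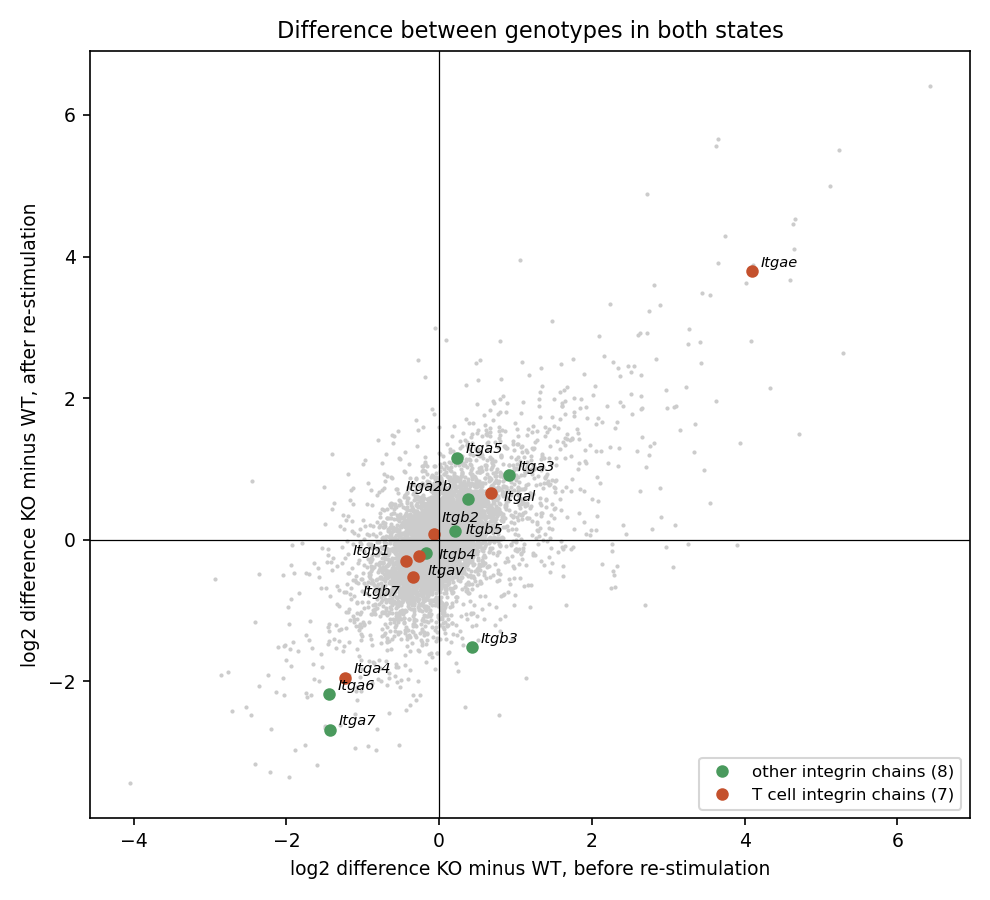
Log2 difference between KO and WT cells before (x axis) and after re-stimulation (y axis). Each point is 1 gene measured without a bound in both comparisons, grey for all genes, orange for the 7 T cell integrin chains and green for 8 other integrin chains; *Itgae* lies at 4.10 and 3.79, *Itga4*, *Itga6* and *Itga7* lie together at the lower left, and *Itgb3* lies at 0.43 and -1.51.

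Genes for integrin ligands were measured in 11 and 13 cases of 21 with a probe. Of these, 1 was at least 2-fold higher on the KO array and 0 lower before re-stimulation, and 3 were higher and 1 lower after it, with medians of 0.49 and 0.34. The shares of all genes were 5.26% higher and 2.82% lower before, and 5.17% and 3.85% after. *Spp1*, which encodes osteopontin, a ligand of αv and α4 integrins, read 1380 in WT and 9856 in KO cells before re-stimulation and 3380 and 22407 after it, 7.18-fold and 5.88-fold higher. *Cdh1*, which encodes E-cadherin, the ligand of αEβ7, read 141 and 89.0 before, and 183 and 56.1 after, with differences of -0.66 and -1.88. *Lama5*, a laminin chain, was higher by 0.70 and 1.96. *Col1a1*, a collagen chain, was higher by 0.87, and after re-stimulation at least 2.1-fold higher. *Vcam1*, *Fn1* and *Vtn*, ligands made mainly by stromal, endothelial and liver cells, were well above background on 0 arrays.

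The machinery that switches integrins on from inside the cell, in which the small GTPase Rap1 brings talin and kindlin to the β chain, was measured for 21 of 23 genes in each genotype comparison. It gave 1 gene at least 2-fold higher and 1 lower before re-stimulation, and 0 higher and 2 lower after it, with medians of -0.00 and 0.07. Of all genes, 5.26% were higher and 2.82% lower before, and 5.17% and 3.85% after. *Rasgrp2*, the exchange factor that activates Rap1, read 1024 in WT and 416 in KO cells before, and 189 and 34.9 after, -1.29 and -2.61 on the log2 scale. *Cyth1*, an activator of LFA-1, was lower by 0.46 and 1.10, and *Rap1gap*, which turns Rap1 off, was higher by 1.09 and 0.35. *Tln1*, talin, differed by 0.08 and 0.25, and *Fermt3*, the kindlin of blood cells, by 0.19 and 0.90.

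On re-stimulation 6 of 22 genes of this list were at least 2-fold lower and 2 higher in WT cells, where 13.5% and 13.2% of all genes were. In KO cells 9 of 21 were lower and 2 higher, where 13% and 12.4% of all genes were. The list's medians were -0.69 and -0.94, and scaling alone moved them to -0.39 and -0.69 with *Cd3e* and to -0.98 and -1.21 with the array median. *Tln1* dropped by 1.34 and 1.17, *Fermt3* by 1.71 and 1.01, and *Rasgrp2* by 1.96 and 3.28, in WT and in KO cells.

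Of the genes that act downstream of bound integrins, 16 were measured, with 1 higher and 1 lower before re-stimulation and 2 higher and 0 lower after it, at medians of 0.17 and 0.30. The shares of all genes past 2-fold were 5.26% higher and 2.82% lower before, and 5.17% and 3.85% after. *Src*, a kinase at adhesion sites, was at least 1.81-fold higher before and 2.92-fold higher after re-stimulation. *Vcl*, vinculin, read 124 in WT and 71.0 in KO cells before, and 29.1 and 87.5 after. *Actn1*, an α-actinin, differed by -1.06 and 0.07, and *Lims2*, an adaptor of the integrin-linked kinase, by 1.03 and 0.69. *Ptk2b*, the focal adhesion kinase family member of T cells, differed by 0.13 and 0.69.

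Of 8 membrane partners of integrins, 1 was at least 2-fold higher in each state and 0 lower, with medians of 0.21 and 0.20. Among all genes tested, 5.26% passed 2-fold upwards and 2.82% downwards in resting cells, against 5.17% and 3.85% in re-stimulated cells. *Cd63*, a tetraspanin of late endosomes, was the partner past 2-fold in resting cells, at 1.98, and stood at 0.14 in re-stimulated cells. *Cd81*, a tetraspanin that associates with β1 integrins, stood at 0.81 in resting cells and passed 2-fold in re-stimulated cells, at 1.16. TGF-β, which raises αE in T cells, was covered by its receptors, Smads and regulators. Of these, 10 and 9 were measured, with 1 higher before re-stimulation, 0 after it and 0 lower in either, beside the same shares of all genes, at medians of -0.01 and 0.03. The 1 was *Skil*, an inhibitor of Smad signalling, at 1.07 before and 0.02 after.

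Homing genes outside the integrin family included the lowest value of all these lists in each genotype comparison. Of 14 and 13 measured, 3 and 2 were at least 2-fold higher on the KO array and 1 and 2 lower. The shares of all genes were 5.26% and 5.17% higher, and 2.82% and 3.85% lower. *S1pr1*, which lets T cells leave lymphoid organs, differed by -0.83 and -2.97, and *Ccr7*, the lymph node chemokine receptor, by -2.24 and -1.91. *Prdm1*, which encodes the repressor Blimp-1 of effector and resident cells, was higher by 1.31 and 1.98, and *Cxcr6*, a chemokine receptor of tissue-resident T cells, by 1.48 and 1.73.

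**Figure D4:**
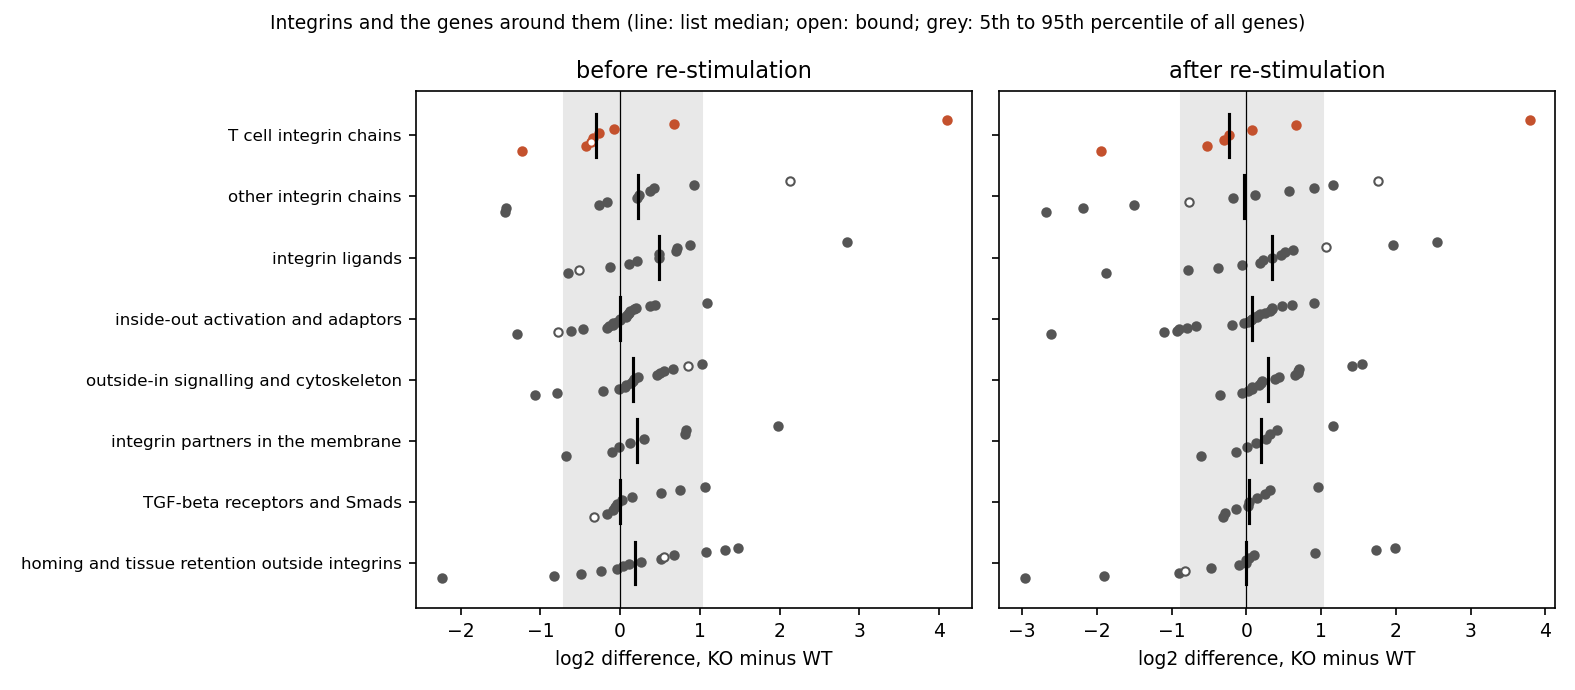
Log2 difference between KO and WT cells, before (left) and after re-stimulation (right), for each measured gene of the T cell integrin chains (orange) and of 7 lists of genes around them (dark grey). Black lines are list medians, open points are bounds, and the grey band runs from the 5th to the 95th percentile of all genes tested, -0.70 to 1.03 before and -0.87 to 1.03 after; *Itgae* lies far outside it on the right and *Itga4* outside it on the left.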

How the data were processed

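For every array the authors deposited spot intensity values made with Feature Extraction 10.7.3.1, which subtracted background and detrended the surface, along with flags for spots well above background or uneven. The authors also deposited a table of log2 values, in which that intensity is scaled to the array's 75th percentile. The methods read here do not describe the array processing. All 4 samples were mapped from their labels.

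Spots marked uneven or as outliers were left out, 107 to 120 of 43379 per array. Spots of 1 probe were averaged as log2 values and each array was scaled to its 75th percentile over 41173 probes, none saturated. Of these, 27479 (66.7%) were named through RefSeq transcripts of GRCm38.p6, and where a gene had several probes, the one with the highest mean signal was used. A difference used genes well above background on at least 1 of its arrays, with the dimmer value raised to the lowest signal of its array so marked, which gives a bound. Genes past 2-fold were counted, a rule of size and not a test. With 1 array per group the number of arrays limits precision.

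Members, lists and alternatives were chosen with earlier results of these data known. Named were all members, up to 4 genes of each list with the largest genotype difference past 2-fold, *Tln1*, *Fermt3* and *Ptk2b*, the 3 nearest patterns of each member that ranged over at least 2-fold, and marker genes as checks. Alternatives were scaling to the array median or to the *Cd3e* probe, quantile normalization, normexp with an offset of 50 on median spot signals, the authors' table, the mean over probes, both arrays above background, no filter, and a 3-fold rule. The steps were checked on simulated data. Python 3.11.15, numpy 2.4.6, pandas 2.3.3, matplotlib 3.10.9, R 4.3.3 and limma 3.58.1 were used. The study's ChIP-seq data were not used here. One gene of the homing list is not reported here and was left out of that list's counts.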

Additional observations from a re-analysis of the deposited data

Results flagged for a closer look

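Some genes around the integrins moved one way in one state or genotype and the other way in the other. With 1 array per condition none of these contrasts was tested. *Itgb3* was higher on the KO array before re-stimulation, by 0.43, and lower after it, by 1.51, a change of -1.94 on the log2 scale. *Vcl* was lower on the KO array before, by 0.80, and higher after, by 1.41, a change of 2.21, which on re-stimulation is a fall of 1.61 in WT and a rise of 0.60 in KO cells. *Cdh1* rose by 0.86 on re-stimulation in WT cells and changed by -0.37 in KO cells, a gap of -1.23. *Actn1* changed by -0.93 in WT and 0.20 in KO cells, a gap of 1.14, and its value in KO cells was -0.062 with scaling to the array median.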

How the results depend on the processing

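With 1 array per condition no replicate could be left out. No paired analysis was possible because the groups share fewer than 2 replicate numbers. Of 238 single values of the chains under the alternatives, 172 stayed within the spread between probes of the reported value, 60 moved by more with their sign kept and 6 changed sign, 5 of them from a value larger than that spread, and the cause was not tested. With the mean over probes, which brings in probes near background, *Itgav* was 1.06 between genotypes before and 0.0076 after re-stimulation, and *Itga4* rose by 0.50 on re-stimulation in WT cells. With scaling to the array median, *Itgal* on re-stimulation was -0.044 in WT and -0.031 in KO cells. The sixth was *Itgb2* between genotypes before re-stimulation, at 0.067 with *Cd3e* scaling. *Itgae* stayed past 2-fold higher between genotypes under all 8 alternatives in both states, and *Itga4* after re-stimulation past 2-fold lower under all 8. Not all of these could change the values. The filter settings cannot alter a chain well above background on all arrays, and the authors' table uses the main scaling. For *Itgae*, read by 1 probe, the mean over probes could not alter it either.

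Between genotypes before re-stimulation, 2 chains were higher with the mean over probes, and 0 were lower with normexp, with the mean over probes or with the 3-fold rule. The shares of all genes moved too. With the mean over probes 4.71% of all genes were at least 2-fold higher and 2.49% lower, and with normexp 0.89% were lower. Shares of all genes past 3-fold are not given here. The chains' median was -0.16 with *Cd3e* scaling, -0.14 with normexp and -0.036 with the mean over probes. After re-stimulation it was 0.0076 with the mean over probes and 0.073 without a filter. For re-stimulation in WT cells, 2 chains were higher with *Cd3e* scaling, and 2 were lower with median scaling, 1 with normexp and 1 without a filter. The median there was -0.55 with median scaling, -0.43 with quantile normalization, -0.056 with *Cd3e* scaling, 0.24 with the mean over probes, and -0.41 both without a filter and with both arrays above background. For re-stimulation in KO cells, 2 chains were lower with median scaling and with quantile normalization. With *Cd3e* scaling, the mean over probes or the 3-fold rule 0 were lower. Of all genes, 19.3% were at least 2-fold lower with median scaling, 14.3% with quantile normalization, 8.42% with *Cd3e* scaling and 11.7% with the mean over probes. The chains' median was -0.55 with median scaling and -0.033 with *Cd3e* scaling.

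Of 786 values of other named genes, 16 changed sign, 12 of them from a value within the spread between probes. The other 4 were on re-stimulation, *Itgb3* in WT cells at 0.014 with *Cd3e* scaling, *Prdm1* in WT cells at -0.021 with median scaling, *Rap1gap* in WT cells at 0.15 with the mean over probes, and in KO cells *Actn1* at -0.062 with median scaling. In KO cells the re-stimulation median was -0.089 for downstream genes and -0.049 for homing genes with median scaling, and 0.11 for TGF-β genes with *Cd3e* scaling. In WT cells it was -0.021 for homing genes with median scaling. *Cd3e* scaling moved the median of all genes by 0.14 before and 0.097 after re-stimulation between genotypes. For re-stimulation, 20.1% of genes were higher and 8.02% lower in WT cells with *Cd3e* scaling, and 8.82% and 21.5% with median scaling, and in KO cells 17.6% and 8.42%, and 8.58% and 19.3%.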
